A study of Homo sapiens with 17 samples.

Results

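Translation factor mRNAs were examined in HEK293T cells, an established human embryonic kidney line, by how strongly ribosome-linked editing marked them and by how much of each was recovered with the nuclear and the cytoplasmic poly(A)-binding protein. The members were the protein-coding genes whose names begin with EIF1 to EIF6, EEF1 or EEF2, together with ETF1 and GSPT1. This gave 70 genes among the 13473 protein-coding genes (PCGs) and 18869 genes of the deposited table. An average TPM (transcripts scaled by length and depth) of at least 5 in both immunoprecipitates was reached by 65 of the 70, and by 9607 of the PCGs. Counts and medians below are over those 65 and those 9607.

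In RPS2-STAMP cells the cytidine deaminase APOBEC1 was fused to the ribosomal protein RPS2, so that mRNAs touched by ribosomes acquire C-to-U edits, and in Control-STAMP cells APOBEC1 was expressed alone. Both constructs were carried by stable lines, expression was switched on with doxycycline (50 ng/ml, 24 h), and all cells were crosslinked with 0.1% formaldehyde. Sequenced RNA came from 3 fractions, the Input and the immunoprecipitates of PABPC (PABPC IP) and PABPN (PABPN IP), with 3 samples of RPS2-STAMP for each, 3 of Control-STAMP for the Input and the PABPN IP, and 2 of Control-STAMP for the PABPC IP. The study describes the lysate as cytoplasmic, whereas the sample labels state no fractionation. The deposited editing value is the normalized EPKM, a number of edits scaled by transcript length and by sequencing depth, from which editing in the control was subtracted. There is a single EPKM and a single average TPM per gene and fraction, so the values below carry no SD, n or p-value, and no difference between fractions has a replicate check. EPKM and TPM are both per length, so levels can be set side by side between genes. Below, a value "with PABPC" is that of the PABPC IP and a value "with PABPN" that of the PABPN IP. An EPKM grows with the abundance of an mRNA as well as with its editing, and across the 65 members Spearman's rank correlation between EPKM and TPM in the Input was 0.73, against 0.53 across PCGs (9601 with a coding length). Because the RNA came from bulk cultures, fewer cells with an mRNA and less of it per cell cannot be told apart.

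Translation begins when initiation factors (eIFs) bring the initiator tRNA and the small ribosomal subunit to the capped end of an mRNA and scan to the start codon. Elongation factors (eEFs) then deliver aminoacyl-tRNAs and move the ribosome along the codons, and release factors end the chain at the stop codon. Many mRNAs of this machinery are themselves under translational control. TOP mRNAs begin with a C followed by an uninterrupted stretch of pyrimidines, the 5′ terminal oligopyrimidine tract, and their translation follows growth signals through mTOR and LARP1. They encode nearly all cytosolic ribosomal proteins, the elongation factors and several subunits of eIF3. For that reason the EEF1 subunits, EEF2 and the EIF3 subunits are set apart below as TOP-type factors (21 genes, 19 past the TPM filter) from the other 49 (46 past the filter).

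The first bases of the transcripts show how far that grouping matches the tract. Transcript starts were available from RefSeq (GRCh38.p14) for 55 of the 70 members. EEF1AKMT1, EEF1A2, EEF1D, EIF3A, EIF3E, EIF3G, EIF3H, EIF3L, EIF3CL, EIF2S2, EIF4EBP1, EIF2AK1, EEF1AKMT3, EEF2KMT and EEF1AKNMT were not matched. Each line below gives 10 bases before and 20 bases after the RefSeq start, 5′ to 3′ on the strand of the gene, with the run of C and T that opens the transcript in capitals. Capitals are used only where the first transcribed base is C, and the lines without capitals show starts that lack such a run. The elongation factors and eIF3 subunits with the tract come first, then factors outside the TOP-type group that also have it, and last 3 highly expressed factors without it.
EEF1A1, chr6:73521013-73521042, minus strand: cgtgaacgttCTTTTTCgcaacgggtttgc
EEF1B2, chr2:206159885-206159914, plus strand: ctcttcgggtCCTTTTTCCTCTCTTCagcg
EEF2, chr19:3985444-3985473, minus strand: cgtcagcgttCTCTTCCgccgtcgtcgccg
EIF3D, chr22:36529147-36529176, minus strand: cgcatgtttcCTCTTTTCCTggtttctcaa
EIF3F, chr11:7987327-7987356, plus strand: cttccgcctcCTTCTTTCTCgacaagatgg
EIF3K, chr19:38619178-38619207, plus strand: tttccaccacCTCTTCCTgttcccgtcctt
EIF3M, chr11:32583821-32583850, plus strand: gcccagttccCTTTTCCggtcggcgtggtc
EIF4B, chr12:53006446-53006475, plus strand: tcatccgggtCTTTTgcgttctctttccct
EIF4A2, chr3:186783567-186783596, plus strand: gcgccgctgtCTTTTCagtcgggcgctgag
EIF2A, chr3:150546777-150546806, plus strand: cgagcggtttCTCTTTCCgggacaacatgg
EIF2S3, chrX:24054946-24054975, plus strand: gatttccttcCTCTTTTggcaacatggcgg
EIF2D, chr1:206612446-206612475, minus strand: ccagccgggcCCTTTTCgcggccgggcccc
EEF1G, chr11:62573872-62573901, minus strand: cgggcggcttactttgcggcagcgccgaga
EIF3I, chr1:32222397-32222426, plus strand: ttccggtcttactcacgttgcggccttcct
EIF5A, chr17:7306989-7307018, plus strand: tgggaacccgaccacactagcgcgctagaa

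The motif searched was a C at the start followed by at least 4 bases that are each C or T, on the transcribed strand, in any of a gene's RefSeq starts. It was present in 13 of the 55 matched members (23.6%), and in 12 of the 51 that also passed the TPM filter. Among PCGs past the filter with a RefSeq start, 7.83% of 7884 had it, and among all 35116 RefSeq starts the share was 4.07%. For comparison, 47 of 66 cytosolic ribosomal protein genes had it (71.2%). Of the TOP-type factors past the filter 7 of 12 had the motif, namely EEF1A1, EEF1B2, EEF2, EIF3D, EIF3F, EIF3K and EIF3M. Of the other factors 5 of 39 past the filter had it, namely EIF2A, EIF2D, EIF2S3, EIF4A2 and EIF4B, and so did EIF2S3B below the filter. The longest run, 16 bases, belonged to EEF1B2, which has a second RefSeq start with no run. A match describes these letters at an annotated start and does not show that a tract is used in these cells. A missing match likewise rests on the annotated start and does not show that a tract is absent. EEF1G, which had no match, is on the textbook TOP list used as an alternative below.

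Over the 65 factor mRNAs the median EPKM was 0.0938 in the Input, 0.0758 with PABPC and 0.0620 with PABPN. The PCG medians were 0.0273, 0.0501 and 0.0334 in the same order, so the factors stood above the PCGs in every fraction, and most in the Input. Factors were also more abundant than the typical PCG, since their Input TPM had a median of 52.5 and that of the PCGs 15.8. Among genes with an Input TPM of at least 100 the 23 factors had a median Input EPKM of 0.197, against 0.210 for the 695 PCGs. With a limit of 20 in place of 100, the 49 factors had 0.118 and the 4034 PCGs 0.0735. The factors were thus above the PCGs in the Input at the lower limit and slightly below them at the higher one. With PABPC the order was the other way round, since the factors had 0.0795 against 0.0911 at the lower limit and 0.157 against 0.139 at the higher. With PABPN they were above the PCGs at both, with 0.0874 against 0.0526 and 0.134 against 0.0811. The part of abundance in the EPKM values was not tested further.

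Editing above the control was listed in all 3 fractions for 40 of the 65 factors (61.5%), and for 50.5% of PCGs. The Input held the highest EPKM for 22 factors (33.8%), where the share of PCGs was 26.6%. The PABPC IP was highest for 25 factors (38.5%; 42.6% of PCGs) and the PABPN IP for 17 (26.2%; 28.7% of PCGs). At an Input TPM of at least 100 the Input was highest for 43.5% of factors and 61.6% of PCGs. The PABPC IP was highest for 39.1% and 27.1%, and the PABPN IP for 17.4% and 9.50%. In each fraction the order of factors and PCGs was thus the other way round at that abundance. EEF2KMT, the lysine methyltransferase of eEF2, was listed at 0 in every fraction, with a TPM of 26.9 in the Input. EEF1AKMT4, EEF1AKNMT, EIF1B and EIF4A3 were above 0 in only 1 fraction each. A listed 0 means no editing above the control in the deposited values, and with PABPN it was found for 13 of the 65 factors (20%), for 11 of 82 ribosomal protein mRNAs (13.4%) and for 27.1% of PCGs.

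**Figure D1:**
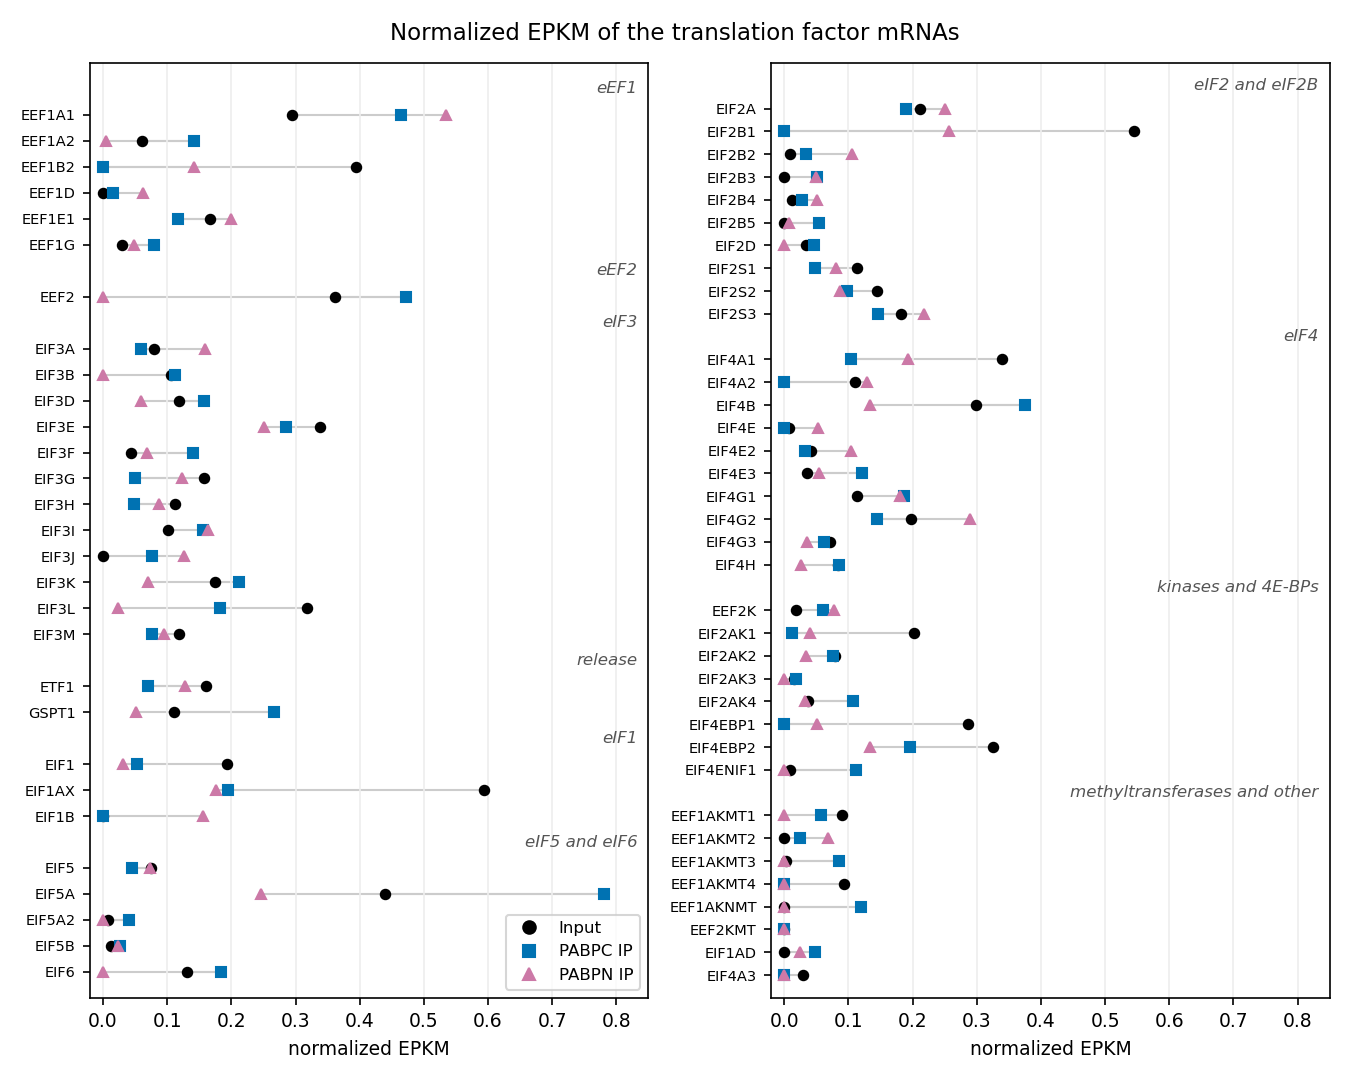
Normalized EPKM (horizontal axis) of each of the 65 factor mRNAs in the Input (black circles), the PABPC IP (blue squares) and the PABPN IP (pink triangles), grouped by role. Each symbol is the authors' pooled value, so there are no error bars. EIF5A with PABPC (0.781) is the highest value, and the order of the fractions differs from gene to gene.

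Several elongation factor mRNAs were among the most abundant members. EEF1A1, the GTPase that carries aminoacyl-tRNA to the ribosome, had a TPM of 2454 in the Input, 6769.8 with PABPC and 2239 with PABPN. Its EPKM was 0.294 in the Input, 0.464 with PABPC and 0.534 with PABPN, the last being the highest of any factor in that IP. EEF1A1 thus had a high EPKM in every fraction, and a higher one in both IPs than in the Input. With PABPC its TPM was also higher than in the Input. Because EPKM grows with abundance, these values do not show more editing per transcript. EEF1A2, the isoform of muscle and neurons, was far less abundant (TPM 19.5 in the Input), and its EPKM was 0.0611 in the Input, 0.142 with PABPC and 0.00540 with PABPN. Unlike EEF1A1, it was nearly at 0 with PABPN.

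The eEF1B complex recharges eEF1A with GTP. EEF1B2, a nucleotide exchange subunit, had an EPKM of 0.394 in the Input and 0.141 with PABPN and was listed at 0 with PABPC, although its TPM was highest there (442 in the Input, 1329.9 with PABPC and 366 with PABPN). EEF1G, the scaffold subunit, reached a TPM of 1549.7 in the Input, 4416 with PABPC and 958 with PABPN, yet its EPKM was only 0.0303, 0.0795 and 0.0477 in that order. Its Input TPM lay at the 99.6 percentile of PCGs and its Input EPKM at the 52.4 percentile. EEF1D, the other exchange subunit, was listed at 0 in the Input and had an EPKM of 0.0161 with PABPC and 0.0620 with PABPN. EEF1E1 belongs to the multi-tRNA synthetase complex. It is counted here with the EEF1 genes by its name and is not among the core factors. Its EPKM was 0.167 in the Input, 0.116 with PABPC and 0.199 with PABPN.

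EEF2, the GTPase that translocates the ribosome, showed the sharpest contrast between the IPs among the elongation factors. Its EPKM was 0.361 in the Input and 0.472 with PABPC, and it was listed at 0 with PABPN. Its TPM with PABPN was 1816, so the mRNA was recovered there in quantity (2257 in the Input and 4832 with PABPC). With no edit counts in the files, whether this 0 is an absence of editing or editing equal to the control cannot be told apart.

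The eIF3 complex is the largest initiation factor and holds the small subunit, the other initiation factors and the mRNA together. The mRNAs of 12 eIF3 genes passed the TPM filter, and their median EPKM was 0.115 in the Input, 0.127 with PABPC and 0.0914 with PABPN. All 12 were above 0 with PABPC (82.6% of PCGs), and 11 were above 0 in the Input (91.7%; 78.1% of PCGs) and with PABPN (91.7%; 72.9% of PCGs). The range across subunits was wide in each fraction, from 0.0489 (EIF3H) to 0.286 (EIF3E) with PABPC.

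EIF3E had the highest EPKM of the eIF3 mRNAs past the filter in each fraction, 0.338 in the Input, 0.286 with PABPC and 0.251 with PABPN. EIF3L had an EPKM of 0.318 in the Input, 0.183 with PABPC and 0.0236 with PABPN. EIF3K, its partner in the complex, had 0.175, 0.212 and 0.0705 in the same order. These subunits of the octameric core were thus above the eIF3 median with PABPC, while EIF3L and EIF3K were below it with PABPN. EIF3F had an EPKM of 0.0437 in the Input, 0.141 with PABPC and 0.0682 with PABPN. EIF3H, with which it forms a dimer, had 0.113, 0.0489 and 0.0874, an opposite order of the fractions. EIF3M had 0.118, 0.0768 and 0.0954, which is close to the group medians in the Input and the PABPN IP and below that of the PABPC IP.

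The large scaffold subunits differed from each other. EIF3A had an EPKM of 0.0802 in the Input, 0.0599 with PABPC and 0.159 with PABPN, and was the only eIF3 mRNA with a lower TPM with PABPC (37.9) than in the Input (42.8) among those past the filter. EIF3B was edited at 0.105 in the Input and 0.113 with PABPC and was listed at 0 with PABPN. These scaffold mRNAs lay on opposite sides of the comparison between the IPs. EIF3D, the subunit that can bind the cap, had an EPKM of 0.118 in the Input, 0.157 with PABPC and 0.0597 with PABPN. EIF3G, which has an RNA recognition motif, had 0.158, 0.0493 and 0.123. EIF3D was thus higher with PABPC and EIF3G with PABPN. EIF3I, a beta-propeller subunit and the most abundant eIF3 mRNA (TPM 423 in the Input), had 0.102, 0.155 and 0.163. EIF3J, the loosely bound subunit, was listed at 0 in the Input and had 0.0768 with PABPC and 0.127 with PABPN. EIF3I and EIF3J had in common an EPKM in each IP above that of the Input. The near-identical copies EIF3C and EIF3CL did not pass the TPM filter and are described with the other copies below.

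The release factors differed in which IP held the higher value. ETF1 (eRF1), which recognises stop codons, had an EPKM of 0.160 in the Input, 0.0708 with PABPC and 0.127 with PABPN. GSPT1 (eRF3a), the GTPase that acts with it, had 0.111 in the Input, 0.266 with PABPC and 0.0512 with PABPN. The EPKM of GSPT1 with PABPC had rank 6 among the 65 factors, at a TPM of only 70.3, where ETF1 had a TPM of 305.

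EIF1 and EIF1AX bind the small subunit and enforce the choice of the start codon. EIF1AX had the highest Input EPKM of all factors, 0.594, with 0.194 with PABPC and 0.176 with PABPN. EIF1 had 0.194 in the Input, 0.0531 with PABPC and 0.0316 with PABPN. Both thus had a higher EPKM in the Input than in either IP. EIF1B, the close relative of EIF1, was listed at 0 in the Input and with PABPC and had an EPKM of 0.156 with PABPN.

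The trimeric eIF2 carries the initiator tRNA, and eIF2B exchanges its guanine nucleotide. Of the 3 eIF2 subunits, EIF2S3 (gamma) was the most abundant and had an EPKM of 0.183 in the Input, 0.146 with PABPC and 0.218 with PABPN. EIF2S2 (beta) had 0.145, 0.0978 and 0.0872. EIF2S1 (alpha, the subunit phosphorylated under stress) had 0.113, 0.0481 and 0.0801. The 3 subunits of this equimolar complex kept the same rank of EPKM, gamma over beta over alpha, in the Input, the PABPC IP and the PABPN IP, which was also the rank of their TPM in the Input (297, 80.2 and 34.8).

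The eIF2B subunits were less uniform. EIF2B1 had an EPKM of 0.546 in the Input, was listed at 0 with PABPC and had 0.256 with PABPN, which was the largest difference in favour of the PABPN IP of any factor. The remaining subunits, EIF2B2 to EIF2B5, had an Input EPKM of at most 0.0127 (EIF2B4) and between 0.0270 (EIF2B4) and 0.0538 (EIF2B5) with PABPC. Among these, EIF2B1 therefore stood apart by its Input value. EIF2A, a factor of non-canonical initiation that is not part of eIF2, had the highest PABPC IP value of the role group, with an EPKM of 0.211 in the Input, 0.190 with PABPC and 0.250 with PABPN. EIF2D, another non-canonical factor, had 0.0342 in the Input and 0.0464 with PABPC and was listed at 0 with PABPN.

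The eIF4 group recognises the cap and unwinds the leader. EIF4B, a stimulator of the helicase eIF4A and a known TOP mRNA, had the highest PABPC IP value of the group, with an EPKM of 0.299 in the Input, 0.376 with PABPC and 0.134 with PABPN. EIF4H, a smaller relative of EIF4B, had 0.0830, 0.0850 and 0.0258. In both mRNAs the PABPN IP had the lowest value. In the helicase mRNAs the PABPC IP had the lowest value. EIF4A1 had an EPKM of 0.339 in the Input, 0.104 with PABPC and 0.192 with PABPN, and EIF4A2 had 0.111 in the Input, was listed at 0 with PABPC and had 0.128 with PABPN.

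The cap-binding protein mRNA EIF4E had an EPKM of 0.00804 in the Input, a listed 0 with PABPC and 0.0519 with PABPN, which was below the PCG median in the Input and with PABPC and above it with PABPN. Its TPM was low, 12.3 in the Input. The scaffold mRNA EIF4G1 had 0.114 in the Input, 0.187 with PABPC and 0.180 with PABPN. EIF4G2 (DAP5), which lacks the eIF4E-binding part, had a higher EPKM with PABPN (0.289) than in the Input (0.197) and with PABPC (0.145). EIF4G1 was thus near equal in the IPs, and EIF4G2 was not. EIF4G3 had 0.0710, 0.0626 and 0.0349 in the order Input, PABPC IP and PABPN IP. The cap-binding relative EIF4E2 (4EHP), a repressor, had 0.0417, 0.0318 and 0.104 in that order. EIF4E3 had 0.0360, 0.122 and 0.0544, so that these relatives of EIF4E differed in which IP was higher.

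EIF5A, the hypusine-bearing factor that helps ribosomes through difficult peptide bonds, had the highest EPKM of any factor in any fraction. Its EPKM was 0.440 in the Input, 0.781 with PABPC and 0.247 with PABPN, at a TPM of 1187, 3057 and 991. Its PABPC IP value lay at the 99.8 percentile of PCGs. EIF6, which keeps the large subunit from joining too early, had 0.131 in the Input and 0.184 with PABPC and was listed at 0 with PABPN. EIF5, the GTPase-activating protein of eIF2, had 0.0743, 0.0446 and 0.0737, and EIF5B, the GTPase of subunit joining, had 0.0118, 0.0259 and 0.0234, the lowest PABPC IP value of the group. EIF5A and EIF5B thus marked both ends of this role group with PABPC. EIF5A2, the second hypusine factor, was far less abundant than EIF5A (TPM 8.07 in the Input) and had 0.00820 in the Input, 0.0407 with PABPC and a listed 0 with PABPN.

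Regulators of the factors were edited at a median EPKM of 0.0580 in the Input, 0.0680 with PABPC and 0.0373 with PABPN (8 genes). EIF4EBP1 and EIF4EBP2 encode the repressors of eIF4E that mTOR inactivates. EIF4EBP2 had an EPKM of 0.325 in the Input, 0.195 with PABPC and 0.134 with PABPN, and EIF4EBP1 had 0.286 in the Input, was listed at 0 with PABPC and had 0.0509 with PABPN. They were similar in the Input and marked both ends of the group with PABPC. Of the kinases that phosphorylate eIF2 alpha, EIF2AK1 (HRI) had 0.202 in the Input against 0.0115 and 0.0406 with PABPC and with PABPN. EIF2AK4 (GCN2) had 0.0375, 0.106 and 0.0329 in the Input, the PABPC IP and the PABPN IP. EIF2AK2 (PKR) had 0.0786, 0.0758 and 0.0341, and EIF2AK3 (PERK) had 0.0146 and 0.0185 and a listed 0 with PABPN. Among the 4 kinases, EIF2AK1 was the one with a higher value with PABPN than with PABPC, the order found in 37.4% of PCGs. EEF2K, the kinase that inhibits eEF2, had 0.0183, 0.0602 and 0.0770. EIF4ENIF1 (4E-T), which takes eIF4E to the nucleus and to P-bodies, had 0.00909 in the Input and 0.112 with PABPC and was listed at 0 with PABPN.

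The last group holds genes that the naming rule takes in although they are not translation factors, 6 methyltransferases of eEF1A and eEF2 together with EIF1AD and EIF4A3. Their medians were the lowest of all groups in the Input (0.00153) and 0 with PABPN. The highest PABPC IP value among them was 0.119, for EEF1AKNMT, which methylates eEF1A, and its EPKM was listed at 0 in the Input and with PABPN. The eEF1A methyltransferases EEF1AKMT1 (0.0567), EEF1AKMT2 (0.0247) and EEF1AKMT3 (0.0853) were above 0 with PABPC, and of these EEF1AKMT2 alone was above 0 with PABPN (0.0676). EEF1AKMT4 was above 0 in the Input alone (0.0938). EIF4A3, the helicase of the exon junction complex, was likewise above 0 only in the Input (0.0294).

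Across the members, EPKM values in the 3 fractions were related only in part. Spearman's rank correlation over the 65 factors was 0.46 between the Input and the PABPC IP, 0.51 between the Input and the PABPN IP and 0.25 between the IPs, where the PCGs had 0.32, 0.23 and 0.19. These are descriptions across genes, which are not replicates, and the pairs share transcript length, base content and abundance.

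Set side by side, the EPKM was higher with PABPC than with PABPN for 34 factors (52.3%; 56.4% of PCGs), lower for 28 (43.1%; 37.4% of PCGs) and equal at 0 for 3 (4.62%; 6.12% of PCGs had equal values). On the scale of EPKM + 0.01, 21 of 65 factors (32.3%) were at least 2-fold higher with PABPC, where 36.3% of PCGs were. In the other direction, 13 of 65 factors (20%) were at least 2-fold higher with PABPN, where 21.1% of PCGs were. Over all 65 factors both shares were close to the background. Among genes with an Input TPM of at least 20, 24.5% of factors and 40.4% of PCGs were at least 2-fold higher with PABPC. With PABPN the shares at that limit were 22.4% and 17.8%. At a limit of 100 they were 34.8% and 40.1% with PABPC, and 13.0% and 14.4% with PABPN. Of the 21 factors, 10 were listed at 0 with PABPN (47.6%; 53.1% of PCGs past the same limit), and of the 13 factors, 6 were listed at 0 with PABPC (46.2%; 48.9% of PCGs). The counts depend on the pseudocount, since with 0.1 in place of 0.01 they were 10 and 4.

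The 5 largest differences in favour of the PABPC IP, in EPKM units, were 0.534 for EIF5A, 0.472 for EEF2, 0.242 for EIF4B, 0.215 for GSPT1 and 0.184 for EIF6. The 5 largest in favour of the PABPN IP were -0.256 for EIF2B1, -0.156 for EIF1B, -0.144 for EIF4G2, -0.141 for EEF1B2 and -0.128 for EIF4A2, each given as the PABPC IP minus the PABPN IP. Elongation factors and eIF4 members were on both sides. The limit of 2-fold fell between EIF4E3 (2.05-fold) and EIF2AK2 (1.95-fold) on the side of the PABPC IP, and between EEF1AKMT2 (2.23-fold) and EIF4G2 (1.93-fold) on the side of the PABPN IP.

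**Figure D2:**
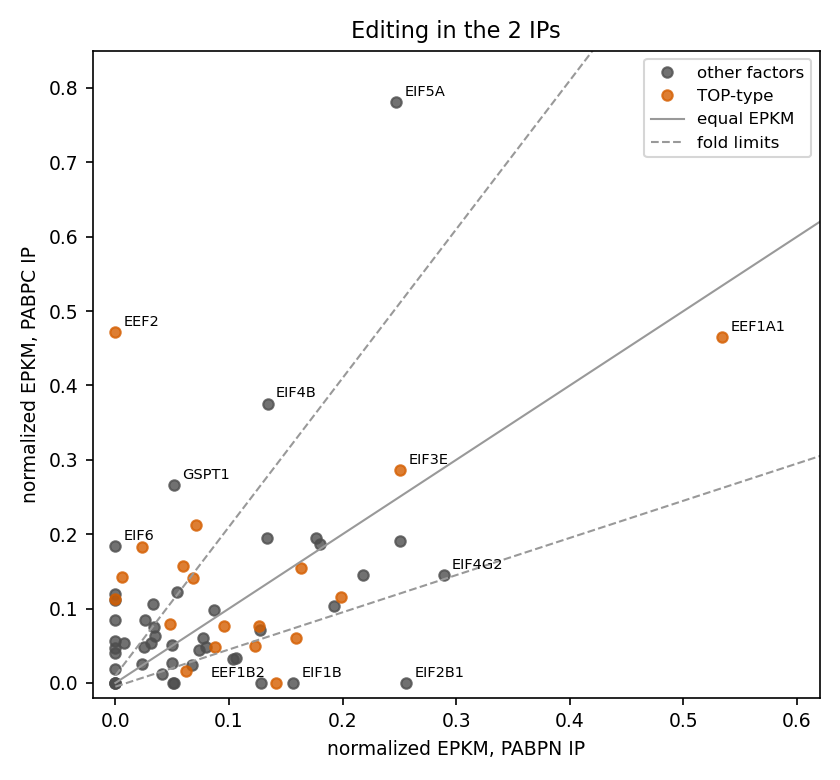
Normalized EPKM with PABPC (vertical axis) against the PABPN IP (horizontal axis) for the 65 factors, TOP-type in orange and the others in grey; the solid line marks equal values and the dashed lines 2-fold limits on EPKM + 0.01. The factors lie on both sides of the line, 34 above it and 28 below it, and several sit on an axis at 0.

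Recovery of the mRNAs was read from log2 ratios of the average TPM. Each ratio was centred on the median of the PCGs, which was 0.99 for the PABPC IP over the Input and 1.14 for the PABPN IP over the Input before centring. Values above 0.5 were counted as enriched and values below -0.5 as depleted. Both ratios share the Input, so their values for a gene are given side by side and were not related to each other. The median over the 65 factors was 0.07 for the PABPC IP and -0.51 for the PABPN IP. Factor mRNAs were therefore near the typical PCG with PABPC and below it with PABPN.

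With PABPC, 5 of 65 factors were enriched (7.69%; 8.37% of PCGs), namely EIF4EBP1, EEF1B2, EIF4EBP2, EEF1G and EIF3E, and 8 were depleted (12.3%; 18.1% of PCGs). Without centring 57 of the 65 were above 0.5 (87.7%; 81.3% of PCGs) and none was below -0.5 (0.885% of PCGs), so the split follows the reference used. The strongest depletion was that of EIF5B, with a centred log2 ratio of -1.30, and of EIF3A, with -1.16. EIF4G3 (-0.98), EIF4G1 (-0.82), EIF2AK2 (-0.80), EIF4ENIF1 (-0.57), EIF4A3 (-0.57) and GSPT1 (-0.50) were the other depleted mRNAs. Several of these have long coding sequences, though EIF4A3 has 1233 bases. EIF2AK4, with 4947 bases, was not depleted (-0.02). Spearman's rank correlation between the centred PABPC ratio and the coding length was -0.49 across the 65 factors and -0.66 across PCGs. The part of coding length in the depletion was not tested. The limit of 0.5 fell between EIF3E (0.52) and EEF1AKMT4 (0.496).

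With PABPN, 33 of 65 factors were depleted (50.8%; 21.6% of PCGs) and 5 were enriched (7.69%; 24.5% of PCGs). Without centring, 1 was below -0.5 (1.54%; 0.583% of PCGs) and 40 were above 0.5 (61.5%; 84.6% of PCGs), so the depletion is relative to the typical PCG. EEF1G had the lowest centred ratio, -1.83, followed by EIF4A3 (-1.61), EEF2 (-1.45), EEF1B2 (-1.41), EIF5A (-1.40), EIF3L (-1.31) and EEF1A1 (-1.27). Elongation factors thus made up 4 of the 7 lowest values. The enriched mRNAs were EIF2AK4 (1.03), EEF1AKMT2 (0.79), EIF1AX (0.63), EIF2AK3 (0.52) and EIF4A2 (0.51). The TPM filter sets no limit on the Input, and EIF2AK3 had an Input TPM of only 3.72. At an Input TPM of at least 20, 4.08% of factors and 9.27% of PCGs were enriched. EIF4EBP3, below the filter through its TPM of 4.38 with PABPC, had a centred PABPN ratio of 1.17. The limit of -0.5 fell between EIF4G2 (-0.51) and EIF2S2 (-0.48).

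Abundance moved with this result. Among the 695 PCGs with an Input TPM of at least 100 the median centred PABPN ratio was -0.85, and among the 23 factors at that abundance it was -0.75. At this limit 78.3% of the factors and 76.1% of the PCGs were depleted. At an Input TPM of at least 20 the medians were -0.61 for the 49 factors and -0.34 for the 4034 PCGs, and 61.2% of the factors and 38.7% of the PCGs were depleted. The factors were thus the lower group at the limit of 20 and not at the limit of 100. The part of abundance in the count of depleted factors was not tested.

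Compared directly between the IPs, 36 of 65 factors had a centred log2 TPM ratio of the PABPC IP over the PABPN IP above 0.5 (55.4%; 30.4% of PCGs), and 11 had one below -0.5 (16.9%; 31.5% of PCGs). Without centring the counts were 31 (47.7%; 23% of PCGs) and 15 (23.1%; 37.6% of PCGs). At an Input TPM of at least 100, 82.6% of factors and 83.2% of PCGs had a centred ratio above 0.5. Below -0.5 were 4.35% and 4.60%. At a limit of 20, 67.3% of factors and 51.6% of PCGs were above 0.5, and 8.16% and 14.4% below -0.5. The part of abundance in these counts was not tested. The highest values were 2.40 for EEF1G, 2.06 for EEF1B2, 1.82 for EIF5A and 1.79 for EEF1A1, and the lowest were -1.48 for EIF3A, -1.40 for EIF5B and -1.40 for EIF4G3. EEF1B2 and EEF1A1, which favoured the PABPC IP in TPM, were among the mRNAs with a higher EPKM with PABPN, so recovery and EPKM did not run together for them.

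**Figure D3:**
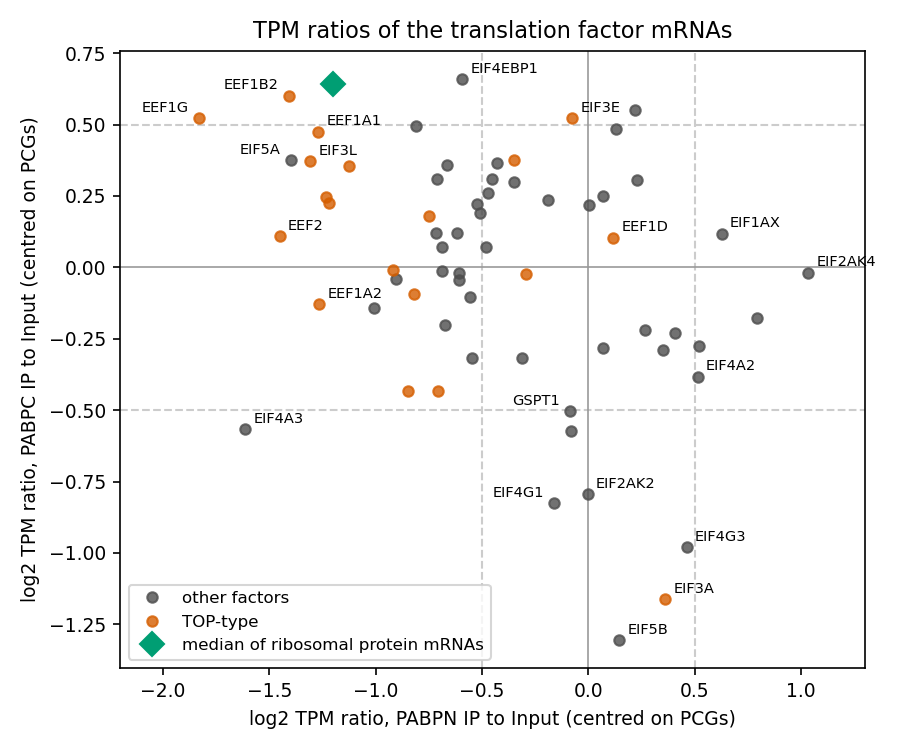
Centred log2 TPM ratio of the PABPC IP to the Input (vertical axis) against that of the PABPN IP to the Input (horizontal axis) for the 65 factors, TOP-type in orange and the others in grey; dashed lines mark 0.5 and -0.5, and the green diamond is the median of 82 ribosomal protein mRNAs. Both axes share the Input; EEF1A1, EEF1B2, EEF1G and EEF2 lie on the left with the diamond.

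The TOP-type factors were compared with the other factors on each measure. Their median EPKM was 0.118 in the Input against 0.0764, 0.116 with PABPC against 0.0553, and 0.0874 with PABPN against 0.0510. Over all factors past the filter the TOP-type median was thus higher in every fraction, though the values overlapped over most of their range (from 0 to 0.394 and from 0 to 0.594 in the Input). The groups also differ in what they hold, since the others include the regulators and methyltransferases. Restricted to the 48 core factors, the difference of medians was 0.00481 in the Input, 0.0687 with PABPC and -0.00472 with PABPN, so that of the 3 differences that with PABPC was the one kept under this restriction. The TOP-type factors were also the more abundant group, with a median Input TPM of 107 against 34.3. At an Input TPM of at least 100 the 10 TOP-type factors had a median EPKM of 0.234 in the Input, 0.170 with PABPC and 0.0968 with PABPN, and the 13 others had 0.197, 0.146 and 0.134. At this abundance the gap with PABPC was thus smaller than over all factors, and with PABPN the others were the higher group. The spread over replicates behind these medians is unknown.

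In TPM the TOP-type factors summed to 8263 in the Input, 20791 with PABPC and 7461 with PABPN. The other factors summed to 4887, 11126 and 7103. All PCGs past the filter summed to 499887, 944288 and 874179, so both IPs had a higher PCG total than the Input. Most of the TOP-type sum in the Input was EEF1A1, EEF2 and EEF1G. The median centred log2 ratio was 0.18 for TOP-type and -0.02 for the others with PABPC, and -0.92 and -0.39 with PABPN. Of the 19 TOP-type factors 14 were depleted with PABPN and none was enriched (73.7% and 0%), and of the 46 others 19 were depleted and 5 enriched (41.3% and 10.9%), where the shares of PCGs were 21.6% and 24.5%. Among PCGs with an Input TPM of at least 100, 76.1% were depleted, and at that abundance 9 of 10 TOP-type and 9 of 13 other factors were. EEF1D, EEF1E1, EIF3A, EIF3E and EIF3J were the TOP-type factors that were not depleted, with centred ratios from -0.35 (EEF1E1) to 0.36 (EIF3A).

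This difference between the groups, -0.53 with PABPN, was seen at both coding lengths. Among factors with a coding sequence of at most the median of 1221 bases, the median centred PABPN ratio was -0.92 for 9 TOP-type and -0.55 for 24 other factors. Among those with a longer coding sequence it was -1.06 for 10 and -0.08 for 22. At an Input TPM of at least 100 it was -1.25 for 10 TOP-type factors and -0.61 for 13 others, beside -0.85 for all PCGs at that abundance. The TOP-type factors were the lower group in each of these strata.

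**Figure D4:**
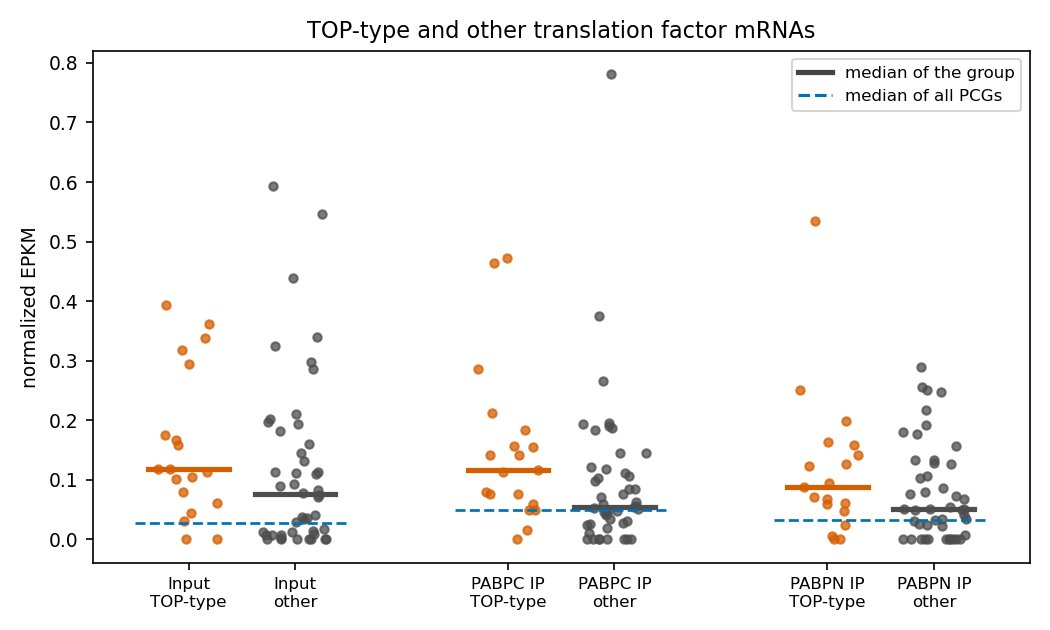
Normalized EPKM (vertical axis) of the 19 TOP-type (orange) and 46 other factors (grey) in each fraction, with the median of each group (thick line) and of all PCGs (dashed line). The points overlap in every fraction, and the TOP-type median is above the median of the others in each.

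Within the TOP-type group the 7 EEF1 and EEF2 genes, of which EEF1E1 is not among the core factors, and eIF3 were set side by side. The 7 genes had a median centred ratio of 0.37 with PABPC and -1.27 with PABPN, and the 12 eIF3 mRNAs had 0.09 and -0.83. Of the eIF3 mRNAs, 9 were depleted with PABPN (75%; 21.6% of PCGs). All 12 had an Input TPM of at least 36.7. Among PCGs with an Input TPM of at least 20, 38.7% were depleted, and at a limit of 100, 76.1%. The lowest eIF3 mRNAs were EIF3L (-1.31), EIF3H (-1.23), EIF3K (-1.22) and EIF3F (-1.12), and the highest were EIF3A (0.36) and EIF3E (-0.08). EIF3A, the one with the longest coding sequence (4146 bases), had the lowest ratio of the 12 with PABPC and the highest with PABPN.

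Grouped by the RefSeq start instead, the 12 factors with the motif had a median EPKM of 0.179 in the Input, 0.151 with PABPC and 0.112 with PABPN. The 39 factors with a RefSeq start and no motif had 0.0710, 0.0626 and 0.0519. The motif group was higher in each fraction and was also the more abundant one, with a median Input TPM of 118 against 38.6. The part of abundance was not tested here. The median centred ratio of the motif group was 0.17 with PABPC and -0.83 with PABPN, against -0.04 and -0.35 without the motif. Depleted with PABPN were 9 of 12 (75%) against 18 of 39 (46.2%), where 21.6% of PCGs were. Among PCGs with an Input TPM of at least 20, 38.7% were depleted, and at a limit of 100, 76.1%. The part of abundance in these shares was not tested. EIF4A2 is the exception among the motif genes, with a centred PABPN ratio of 0.51, and EIF2A (0.00311) and EIF2D (-0.19) were also above -0.5. EEF1G, EIF5A and EIF4A3 have no run at their RefSeq starts printed or searched here and had ratios of -1.83, -1.40 and -1.61.

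**Figure D5:**
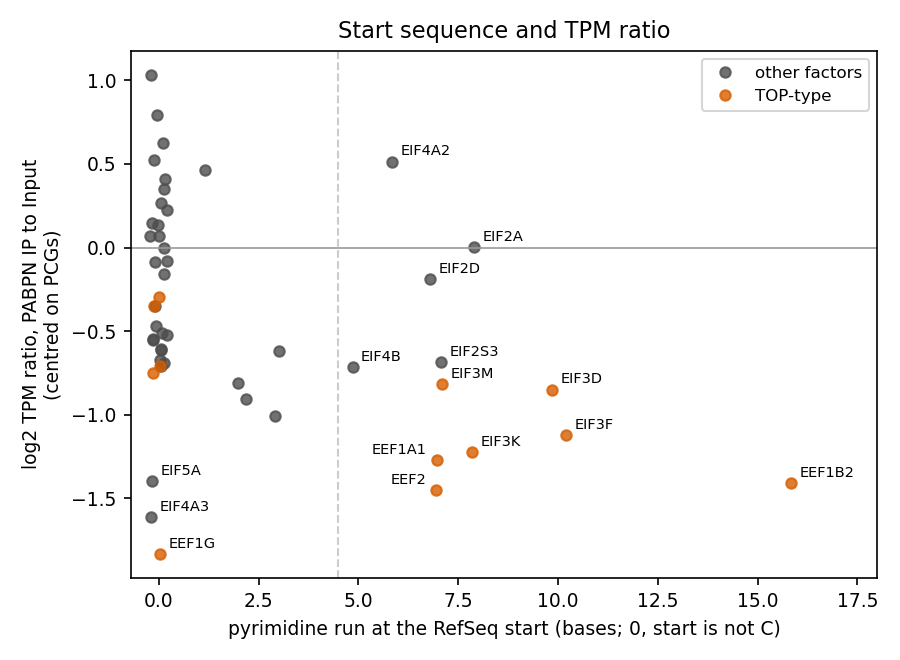
Centred log2 TPM ratio of the PABPN IP to the Input (vertical axis) against the length of the pyrimidine run at the RefSeq start (horizontal axis, in bases, with a small horizontal jitter) for the 51 factors with a RefSeq start that passed the TPM filter; the dashed line separates runs of C plus at least 4 pyrimidines. Of the 12 factors to its right 9 are below -0.5, and the lowest factors to its left are EEF1G, EIF4A3 and EIF5A. Of all PCGs 21.6% are below -0.5, and of PCGs with an Input TPM of at least 100, 76.1%.

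The factors can be placed beside the other protein synthesis genes. Ribosomal protein mRNAs (82 past the filter) had a median EPKM of 0.438 in the Input, 0.425 with PABPC and 0.144 with PABPN, above the TOP-type factors in each fraction. Their median centred ratios were 0.64 with PABPC and -1.20 with PABPN, the latter close to that of the 7 EEF1 and EEF2 genes (-1.27). The 20 cytosolic aminoacyl-tRNA synthetases, which charge tRNAs and are not TOP mRNAs as a class, had a median EPKM of 0.0638, 0.0758 and 0.0617 and centred ratios of -0.50 and -0.51. With PABPC the factors (0.07) thus lay between the ribosomal protein and the synthetase mRNAs in centred ratio. With PABPN they were level with the synthetases in the median (-0.51) and in the share depleted (50.8% of factors and 50% of synthetases).

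Of 17 further translation factors and TOP mRNAs outside the naming rule, 16 passed the TPM filter, and GSPT2, the second eRF3 gene, did not. At least 2-fold higher EPKM with PABPC was found for 7 of the 16 (43.8%; 36.3% of PCGs), and with PABPN for 3 (18.8%; 21.1% of PCGs). In TPM, 1 was enriched (6.25%; 8.37% of PCGs) and 3 were depleted (18.8%; 18.1% of PCGs) with PABPC. With PABPN 5 were depleted (31.2%; 21.6% of PCGs) and none was enriched (24.5% of PCGs). TPT1, a classical TOP mRNA, had an EPKM of 0.169 in the Input, 0.600 with PABPC and 0.185 with PABPN and centred ratios of 0.52 and -1.83 with PABPC and PABPN. PABPC1, which encodes the cytoplasmic poly(A)-binding protein itself and is also a TOP mRNA, had 0.294, 0.406 and 0.309 and centred ratios of 0.50 and 0.12. TPT1 and PABPC1 had similar ratios with PABPC and unlike ratios with PABPN. NAP1L1, from the same list, had an EPKM of 0.135, 0.102 and 0.271 and centred ratios of -0.02 and 0.08. It thus differed from both in its PABPC ratio and had its highest EPKM with PABPN.

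Near-identical copies limit what can be said of some members. The coding sequence of EIF3C matched that of EIF3CL at 99.9% of aligned bases, EIF5A matched EIF5AL1 at 98.9%, and EIF2S3 matched EIF2S3B at 98.2%. The copies below the TPM filter were EIF3C, EIF3CL, EIF2S3B and EIF5AL1, and EIF4EBP3 was the remaining member below it. EIF3C had an EPKM of 0.203 in the Input, 0.109 with PABPC and 0.104 with PABPN at a TPM of at most 1.63, and EIF3CL had 0.193, 0.146 and 0.122 at a TPM of at most 1.53. Their TPM is thus far below that of every other eIF3 subunit, while their EPKM is not. How reads and edits shared by both copies were assigned is not stated, so neither value is certain. EIF5AL1 had 0, 0.0802 and 0.111, EIF2S3B had 0.0167, 0.139 and 0.0447, and EIF4EBP3 had 0, 0.0842 and 0, with the fractions in the order Input, PABPC IP and PABPN IP. Less similar pairs were EIF1 with EIF1B (82.0%), EEF1A1 with EEF1A2 (78.1%) and EIF4A1 with EIF4A2 (76.7%).

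The table also lists 34 pseudogenes of 14 members, 15 of them of EEF1A1, and 5 passed the TPM filter. EEF1A1P5 had a TPM of 52.1 in the Input, 179 with PABPC and 64.4 with PABPN, and an EPKM of 0.219, 0.185 and 0.247. These are values of the same kind as those of EEF1A1, at a small part of its TPM, and the share of reads exchanged between a gene and its pseudogenes is unknown.

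The labelled cell line was checked against its markers in the Input. Of the 5 HEK293T markers looked up, VIM (TPM 184), LIN28B (37.7) and KRT18 (24.8) were well above 0, KRT8 was at 2.16 and PAX2 at 0.797. The fibroblast marker COL1A1 was at 1.90, and PTPRC and ALB were not analysed here. Neither reads nor edits are given as counts per gene, so the counting error of each value is unknown. For depth, the study states a minimum and an average over these libraries, and not the value of each sample.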

How the data were processed

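Ribo-STAMP in HEK293T cells gave 17 samples, 9 of RPS2-STAMP and 8 of Control-STAMP, in 3 fractions. According to the submitters' processing notes and the study's methods, the authors used STAR for alignment to hg38, counted reads with featureCounts 2.0.2 against a GENCODE annotation without overlapping regions, added exonic and intronic TPM and averaged it per fraction. The deposited EPKM is a signal from which the authors subtracted the editing of the control. The deposited TPM columns are also a signal of TPM, whose totals over genes were 854272 (Input), 995724 (PABPC IP) and 975719 (PABPN IP). The sources do not state which samples were averaged, what became of negative differences or how replicates were merged. No value is below 0. The files give no counts, so the counting error is unknown. A minimum and an average depth of these libraries are stated in the study's methods.

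Computed here were medians, counts and log2 ratios with a pseudocount of 0.01 for EPKM, each beside all PCGs that reached a TPM of 5 in the PABPC IP and the PABPN IP. Values are pooled, so the limma fit intended for values per sample was not run. The ratios were centred on the PCG median, and 0.5 was the limit for enrichment, as in the methods' log2 threshold. The members, the lists and the comparisons were chosen with earlier results of these data known. The genes named are all EEF1, EEF2 and EIF3 subunits and release factors, the members with the highest and lowest PABPC IP value of each other role group, the 5 largest differences each way between the IPs, the members below the TPM filter and those beside a limit, with others named to describe a role. Coding lengths came from GENCODE release 44, in which 70 of 70 members were found, and start sequences from RefSeq. Alternatives changed the gene set, summary, pseudocount, limits and centring. The counting of calls was tested on simulated data. The software was Biopython 1.88, matplotlib 3.10.9, SciPy 1.17.1, pandas 2.3.3, NumPy 2.4.6 and Python 3.11.15. Protein sequences were not used here.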

Additional observations from a re-analysis of the deposited data

How the results depend on the processing

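No paired analysis was possible because each column is pooled over replicates, and leaving out replicates could not be run for the same reason. With no replicate spread, values with the same sign and within 1.5 times were taken as unmoved. The alternative that groups factors by RefSeq start was chosen after seeing the data. Of 49 alternative values 26 did not move. The median EPKM over the factors with PABPC exceeded that with PABPN by 0.0138. This was -0.00770 with a TPM of at least 20 and -0.00552 over core factors, so its direction is not settled, and it was 0.0210 as a difference of means and 0.0513 as a median log2 ratio. The TOP-type minus other difference in the Input, 0.0415, was 0.00553 with a TPM of at least 20, 0.00481 over core factors, 0.114 with the textbook TOP list and 0.108 by RefSeq start. In the PABPC IP, 0.0609 became 0.0395 with the textbook list. In the PABPN IP, 0.0363 became 0.0113, -0.00472, 0.0588 and 0.0600 under the same 4 alternatives. For the centred PABPC ratio, 0.20 became 0.0854 with a TPM of at least 20, 0.12 over core factors and 0.32 with the textbook list. For the centred PABPN ratio, -0.53, values ran from -0.71 to -0.37 and none was moved. With a pseudocount of 0.1 the factors at least 2-fold higher fell from 21 to 10 for the PABPC IP and from 13 to 4 for the PABPN IP, and a limit of 1.5-fold gave 22 for the latter. Factors enriched in the PABPC IP numbered 5, against 0 at a limit of 1 and 57 without centring. Factors depleted in the PABPN IP numbered 33, against 12 at a limit of 1 and 1 without centring. Apart from the limit, pseudocount, centring and gene set, which set these counts by construction, the cause was not tested. The study gives only a minimum and an average depth of these libraries. With no edit counts per gene, values near 0 have no error.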
